A study of Mus musculus with 30 samples.

Results

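The first day of 2i/LIF withdrawal in mouse secondary iPSCs was examined by comparing expression at 24 h with expression at 0 h. Of the 22477 genes in the deposited RNA-seq table, 12884 reached at least 1 FPKM (fragments per kilobase of transcript, scaled to the mapped fragments of the library) at 0 h, at 24 h or at both, and these are the genes described. They come from 4 of the 30 samples, 2 replicates at each timepoint. The table combines each pair of replicates into 1 value per gene, so differences are given as plain ratios without an error or a test, and read numbers per gene are unknown. The secondary iPSCs carry dox-inducible transgenes for Oct4, Sox2, Klf4 and Myc (OSKM), GFP at the endogenous Nanog locus and a constitutive nuclear RFP, and these alleles were present at both timepoints. Both timepoints belong to the differentiation time course, in which no dox was given. The 0 h cells had spent at least 24 h in N2B27 medium with LIF and the 2 inhibitors known as 2i, CHIR99021 and PD0325901. The 24 h cells had spent 24 h in N2B27 without LIF or either inhibitor. Before the change to 2i/LIF the line was kept in serum/LIF on feeders, which were CF1 embryonic fibroblasts (MEFs), and the study's methods describe seeding on gelatin before withdrawal in their account of the colony assay. They do not state separately what the RNA-seq cells grew on, nor how many clones the line came from. The study calls its replicates biological.

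PD0325901 blocks MEK, the kinase that activates ERK, and CHIR99021 blocks GSK3, which otherwise marks β-catenin for destruction and so keeps Wnt target genes low. LIF acts through its receptor and the kinase Jak1 on the transcription factor Stat3. Cells held in all 3 agents stay in naive pluripotency, the state of the preimplantation epiblast, and once the agents are removed they can pass through a formative state towards the primed pluripotency of the postimplantation epiblast.

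A gene was called higher or lower at 24 h when one of its values was at least 2 times the other, and "rose" and "fell" are used here only of such genes. A gene under 1 FPKM at one timepoint was tested only through its value at the other, so it could differ in 1 direction only. By the 2-fold rule 1113 genes rose (8.64% of those tested) and 1848 fell (14.3%), while 9923 did neither. The falls outnumbered the rises at larger changes too, with 385 rises and 699 falls of 4-fold or more, and 152 rises and 216 falls of 10-fold or more. The median log2 ratio over all genes tested, with 0.1 FPKM added to each value, was -0.01, and the lower and upper quartiles were -0.52 and 0.41. FPKM values are relative to library size, and the study's methods do not say how libraries were scaled to one another. A median near 0 thus does not show that the total amount of RNA was the same. The sum of all values was 784702 FPKM at 0 h against 720776 FPKM at 24 h. Scaling both timepoints to the same sum would raise every log2 ratio by 0.12, if taken without the added 0.1 FPKM. Calls were most frequent among genes of low expression. Of the 1441 genes whose higher value lay between 1 and 2 FPKM, 19.5% rose and 29.4% fell, against 3.47% and 4.79% of the 605 genes that reached 200 FPKM. Among the 7281 genes that reached 10 FPKM, 5.89% rose and 8.60% fell, and this is the nearer background for lists of well expressed genes. All list counts below are to be read beside these shares or those of all genes. At the threshold itself, Glrb, with 1.00 and 0.362 FPKM at the earlier and later timepoint, was just inside, and Cap2, with 0.999 and 0.146 FPKM, was just outside.

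**Figure D1:**
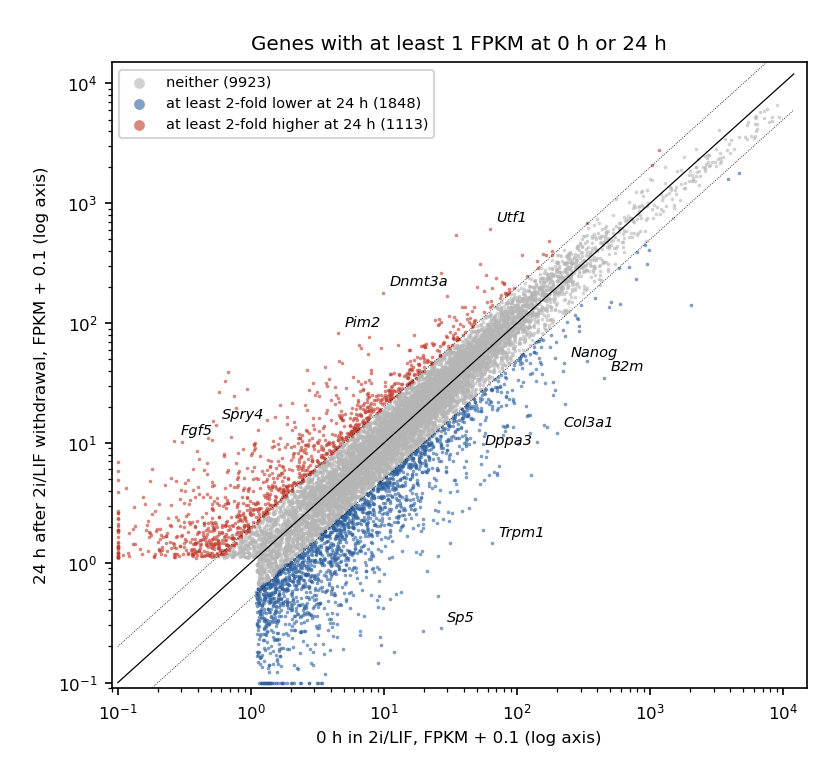
Expression of the 12884 genes at 0 h (x axis) and 24 h (y axis), as FPKM + 0.1 on log axes, 1 point per gene and 1 combined value per timepoint. The solid line marks equal values and the dotted lines 2-fold differences of the plotted values. Colours give the calls made on plain ratios, 1113 genes higher (red) and 1848 lower (blue), with 9923 neither (grey).

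**Figure D2:**
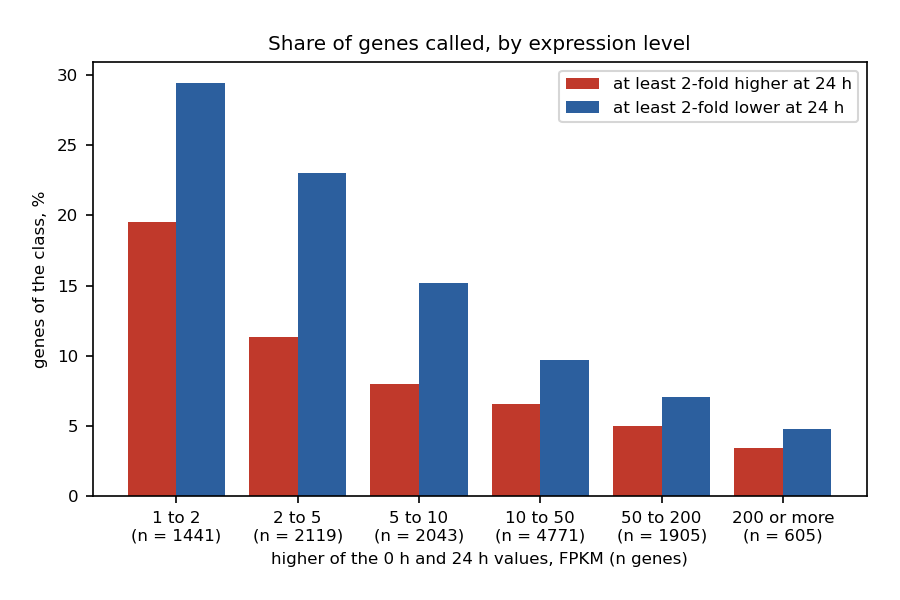
Share of genes called higher (red) or lower (blue) at 24 h, in percent of the genes of each expression class on the x axis, where the class is set by the higher of the 2 values. The share lower at 24 h declines from 29.4% in the class of 1 to 2 FPKM to 4.79% at 200 FPKM or more.

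Targets of the ERK pathway, which PD0325901 holds down, were higher at 24 h. Of the 20 genes in a list of ERK targets and feedback regulators, 10 rose, 1 fell and 19 had a higher value at 24 h than at 0 h, with a median log2 ratio of 1.13 against -0.01 for all genes. Of the 10, Spry4 and Egr1 were under 1 FPKM at 0 h and could only be higher, and with at least 1 FPKM in both values the median was 0.84. Spry4, an inhibitor of receptor tyrosine kinase signalling, went from 0.446 to 13.9 FPKM, a 31.2-fold rise. Here and below, pairs of values give 0 h first and 24 h second. Dusp6, a phosphatase that inactivates ERK, was at 3.61 and 29.6 FPKM, and its relative Dusp4 was at 1.78 and 16.2 FPKM. Of the transcription factors, Egr1 rose from 0.614 to 11.2 FPKM, Fos from 1.66 to 5.07 FPKM and Etv1, an Ets factor, from 1.93 to 12.7 FPKM. Myc rose 16.1-fold, from 2.53 to 40.7 FPKM, although its values, like those of Pou5f1, Sox2 and Klf4, add up the endogenous gene and any transgene transcripts. Other ERK targets were already expressed in 2i/LIF and did not pass the threshold. Etv5 was at 105.7 and 121.8 FPKM, Etv4 at 23.2 and 39.8 FPKM, and Spry2 at 19.6 and 34.0 FPKM. The immediate early genes Junb (8.95 and 12.4 FPKM), Fosl1 (1.05 and 1.51 FPKM) and Ier2 (61.6 and 82.8 FPKM) did neither. The exception was Ier3, which fell from 33.9 to 10.9 FPKM.

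Several Wnt target genes, which CHIR99021 keeps on, fell. Sp5, a zinc finger transcription factor and direct target of β-catenin, lies on chromosome 2 of mm10 from 70474923 to 70477729. It was at 26.7 FPKM at 0 h against 0.185 FPKM at 24 h, a 145-fold fall. Axin2, a negative feedback scaffold of the pathway on chromosome 11 from 108920349 to 108950783, was at 23.7 and 5.00 FPKM. The homeobox gene Cdx1 went from 9.16 to 0.139 FPKM and Tnfrsf19 from 9.82 to 2.48 FPKM. The 4 genes thus fell from starting values between 9.16 and 26.7 FPKM. Rnf43, a membrane ubiquitin ligase that removes Wnt receptors, was at 1.33 FPKM in 2i/LIF and is listed at 0 a day later. Of the 15 list genes tested, 7 fell and 1 rose, with a median log2 ratio of -0.76, and the 3 not tested stayed under 1 FPKM. If at least 1 FPKM is required in both values the median becomes 0.16, since that filter removes Sp5, Cdx1, Cdx2, T and Rnf43, which entered through their 0 h value and could only be lower, and it is 0.34 for the list genes that reached 10 FPKM. Of the tested members, 5 had a higher value at 24 h. Lef1, a DNA-binding partner of β-catenin, rose from 7.40 to 25.4 FPKM. The others did neither: Ccnd1 was at 43.2 and 79.1 FPKM and Tcf7l1, a repressor of the Lef1 family, at 36.3 and 63.6 FPKM. The Wnt inhibitor Notum was at 16.9 and 21.5 FPKM, and Bambi at 2.69 and 3.99 FPKM.

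The LIF and Stat3 list was lower at 24 h, with fewer extreme changes. Of its 20 genes, 10 fell and 1 rose, and the median log2 ratio was -0.77. Of the 10, Bcl6, Osmr and Pramel7 were under 1 FPKM at 24 h and could only be lower, and with at least 1 FPKM in both values the median was -0.45. Socs3, the feedback inhibitor that Stat3 induces, lies on chromosome 11 from 117966079 to 117970047 and fell 2.22-fold, from 43.5 to 19.6 FPKM. It was at 5.32 FPKM at 36 h. Bcl3 fell from 93.2 to 22.1 FPKM and the kinase gene Pim1 from 72.1 to 19.4 FPKM. The receptor subunits differed, with Osmr at 4.53 and 0.352 FPKM, Il6st, which encodes gp130, at 27.4 and 13.5 FPKM, and Lifr at 9.55 and 17.0 FPKM. Stat3 itself was at 30.7 and 23.7 FPKM, and Jak1 at 16.6 and 13.3 FPKM. Of the signalling components, Stat3 and Jak1 thus stayed within 2-fold, while Osmr and Il6st fell. In cells re-seeded from 0 h and kept for 48 h in serum/LIF without dox, Osmr was at 0.109 FPKM and Il6st at 13.8 FPKM. The part of the fibroblast genes described below in these values was not tested. Klf4, Tfcp2l1 and Gbx2 are in both this list and that of naive pluripotency.

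The promoters of Socs3 and Sp5 are shown because they belong to genes that fell in these 2 lists and each holds a match to the motif of the pathway's transcription factor. Both come from RefSeq (GRCm38.p6), run 5′ to 3′ on the gene's strand from 250 bases before the transcription start to 50 bases after it, and have the motif in capitals. The Socs3 promoter is chr11:117969317-117969616 on the minus strand and has TTCNNNGAA, a Stat motif, starting at base 97. This window lies inside the limits given above for Socs3, so the start used here is not the outer end of that gene model. The Sp5 promoter is chr2:70474673-70474972 on the plus strand and has CTTTGAT, a Tcf/Lef motif, starting at base 147.
Socs3: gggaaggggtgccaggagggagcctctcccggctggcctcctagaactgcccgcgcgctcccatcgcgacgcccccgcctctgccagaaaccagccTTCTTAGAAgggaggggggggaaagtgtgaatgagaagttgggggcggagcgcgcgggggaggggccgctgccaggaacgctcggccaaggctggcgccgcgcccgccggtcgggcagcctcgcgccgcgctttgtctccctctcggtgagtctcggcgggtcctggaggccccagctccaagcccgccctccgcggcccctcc
Sp5: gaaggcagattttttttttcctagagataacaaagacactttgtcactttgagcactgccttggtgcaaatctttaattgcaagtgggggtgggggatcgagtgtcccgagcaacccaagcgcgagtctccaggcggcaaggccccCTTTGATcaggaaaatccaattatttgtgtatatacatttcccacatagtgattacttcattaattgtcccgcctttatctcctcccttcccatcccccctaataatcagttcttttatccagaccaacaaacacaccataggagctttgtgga

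Both strands were searched for these motifs in 32851 promoter windows of this length, and neither motif is contained in the other. TTCNNNGAA was in 8.30% of all windows, in 7.31% of the windows of genes that fell, 6.50% of those of genes that rose and 6.64% of those of genes that did neither. CTTTGAT was in 3.73% of all windows, and in 3.22%, 2.74% and 2.35% of these classes. In the LIF and Stat3 list the Stat motif was found for Socs3, Cish, Bcl6, Icam1 and Zfp36, of which only Socs3 and Bcl6 fell, and in 6 of the 21 windows of the list (28.6%). In the Wnt list the Tcf/Lef motif was found for Sp5 and Tnfrsf19, both of which fell, and in 2 of 17 windows (11.8%). These windows cover 11 of the 18 list genes. The Stat motif was also in 2 of the 17, for T and Tnfrsf19, and the Tcf/Lef motif was in none of the 21 windows of the LIF and Stat3 list. A match describes the letters in a window and says nothing of binding. Differences between these shares were not tested.

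**Figure D3:**
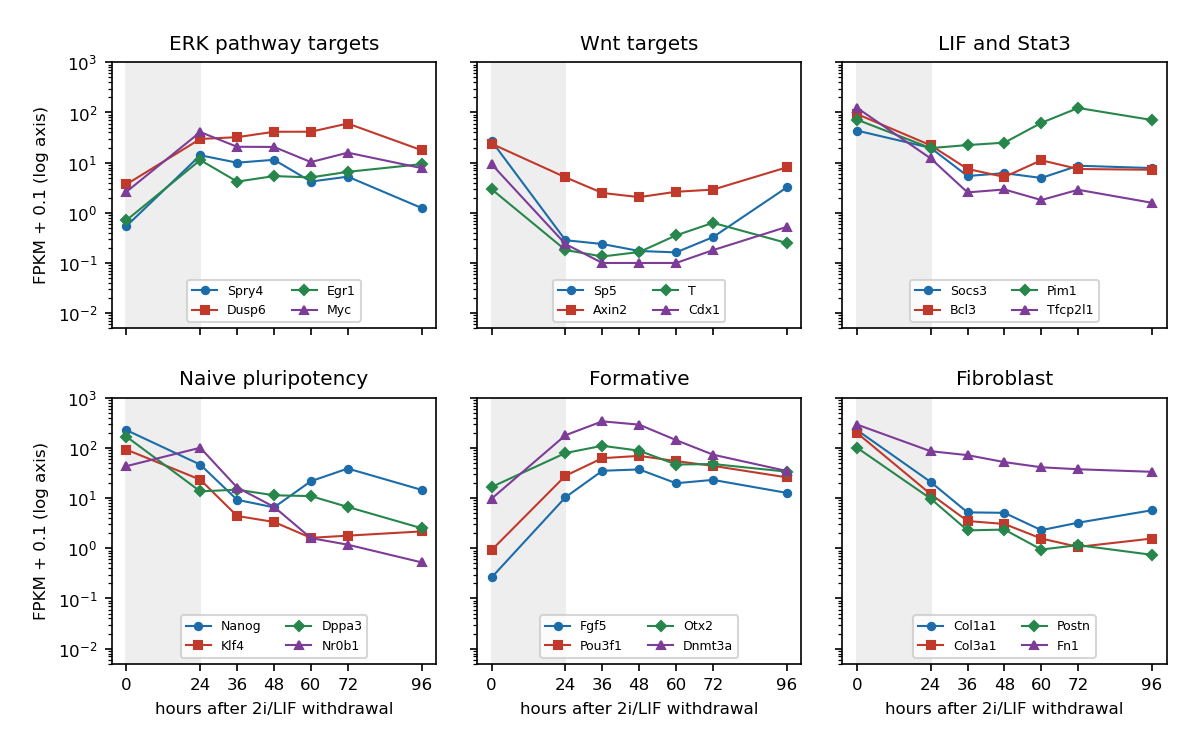
FPKM + 0.1 (log axis) of 4 genes from each of 6 lists at the 7 timepoints after 2i/LIF withdrawal, 1 combined value per timepoint, with the first 24 h shaded. Sp5 drops from 26.7 to 0.185 FPKM within the shaded interval, Fgf5 climbs from 0.164 to 10.3 FPKM, and Nr0b1 is higher at 24 h before it declines.

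Naive pluripotency genes mostly fell within the 24 h, but not together. Of the 21 genes in the list, 11 fell, 3 rose and 7 did neither, with a median log2 ratio of -1.49, and all 21 reached 10 FPKM in the higher value. The largest falls were those of Dppa3, which protects maternal methylation marks and was at 168.1 and 13.6 FPKM, Prdm14, a repressor of the de novo methyltransferase genes, at 18.8 and 1.73 FPKM, and the transcription factor gene Tfcp2l1, at 124.3 and 12.1 FPKM. These falls were between 10.3-fold and 12.4-fold. Smaller falls were those of Nanog at 227.1 and 46.5 FPKM, Klf4 at 92.7 and 23.3 FPKM, Tbx3 at 51.5 and 12.6 FPKM, Esrrb at 149.9 and 45.3 FPKM and Klf2 at 197.0 and 69.5 FPKM. In all 5 the value at 36 h was lower again, for example 9.18 FPKM for Nanog and 4.32 FPKM for Klf4. Zfp42, also known as Rex1, was at 200.8 and 192.1 FPKM and reached 53.2 FPKM only at 36 h. Fgf4, the main Fgf ligand of these cells, was at 82.6 and 79.1 FPKM, and Tet2 at 10.3 and 8.23 FPKM. Nr0b1, Gbx2 and Eras ran the other way. Nr0b1, which encodes the orphan receptor Dax1, rose from 43.5 to 101.2 FPKM and was at 16.2 FPKM at 36 h. Gbx2 rose from 13.5 to 28.7 FPKM and was at 7.53 FPKM at 36 h. Eras, a Ras-like GTPase gene on the X chromosome from 7924276 to 7928607, rose from 0.472 to 26.7 FPKM and was still at 14.2 FPKM at 96 h.

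Genes shared by naive and later pluripotency included rises and no called falls. Of the 15 genes in the list of core and general pluripotency, 7 rose and none fell by the 2-fold rule, with a median log2 ratio of 0.89. Pou5f1 was at 199.3 and 278.9 FPKM and Sall4 at 111.0 and 161.0 FPKM. Sox2 was at 247.5 and 151.5 FPKM, and Tdgf1 at 252.6 and 166.5 FPKM, the 2 members with a lower value at 24 h. The largest rise was that of Utf1, a chromatin-associated factor on chromosome 7 from 139943789 to 139945112, from 62.5 to 613.2 FPKM. Dppa2 rose from 15.4 to 59.0 FPKM, its partner Dppa4 from 40.6 to 135.9 FPKM, the let-7 inhibitor Lin28a from 30.6 to 114.6 FPKM and L1td1 from 174.5 to 484.3 FPKM. All 8 defining markers of pluripotent cells, Nanog and Tdgf1 among them, were above 30 FPKM at both timepoints, which fits the label of the cells.

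Formative genes were higher at 24 h with 1 exception. All 18 genes were tested and 17 rose, with a median log2 ratio of 2.75; the remaining member, Cdh2, was at 1.49 and 1.08 FPKM. Fgf5, Pou3f1, Sox11 and Sox3 were under 1 FPKM at 0 h and could only be higher, and with at least 1 FPKM in both values the median was 2.35. Their summed value went from 129.1 to 1357 FPKM. Fgf5, the classical marker of the postimplantation epiblast on chromosome 5 from 98254184 to 98277030, was at 0.164 and 10.3 FPKM. Pou3f1, which encodes Oct6, was at 0.827 and 27.9 FPKM, and Otx2, a homeobox regulator of this transition, at 16.6 and 79.3 FPKM. All 3 were higher still at 36 h, with 35.1, 62.6 and 110.7 FPKM. Only Dnmt3l and Tcf15 had their highest value of the time course at 24 h, Dnmt3l at 34.7 and 541.9 FPKM and then 411.5 FPKM at 36 h, and Tcf15 at 3.55, 31.3 and 22.8 FPKM. Among smaller rises, Foxd3 went from 7.50 to 24.5 FPKM, Grhl2 from 2.82 to 14.1 FPKM and the let-7 inhibitor Lin28b from 1.05 to 2.19 FPKM.

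In the DNA methylation list the de novo enzymes rose. The methyltransferase genes Dnmt3a, on chromosome 12 from 3806007 to 3914443, and Dnmt3b rose from 9.71 to 179.7 FPKM and from 26.8 to 259.5 FPKM. The maintenance enzyme Dnmt1 was at 63.9 and 72.5 FPKM and its recruiting factor Uhrf1 at 158.7 and 198.9 FPKM. The de novo enzymes and their cofactor Dnmt3l thus rose between 9.67-fold and 18.5-fold, while the 24 h values of the maintenance pair were 1.13 and 1.25 times those at 0 h. The oxidases Tet1 (30.3 and 48.0 FPKM), Tet2 and Tet3 (1.48 and 1.82 FPKM) did neither. Of the 22 genes in the list, 7 rose and 3 fell, with a median log2 ratio of 0.31. Over all genes 8.64% rose and 14.3% fell, and the falls in the list are near that share. The other risers were the remodeller gene Hells, from 79.0 to 213.2 FPKM, and Mbd3, Gadd45a and Gadd45g, and the 3 that fell were Dppa3, Gadd45b and Apobec2.

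Germline genes, several of which are kept silent by promoter methylation in somatic cells, were on balance higher. Of 22 tested, 8 rose and 2 fell, beside 8.64% and 14.3% of all genes, with a median log2 ratio of 0.51. Of the 8, Taf7l and Slc25a31 were under 1 FPKM at 0 h and could only be higher. Brdt, which fell, was under 1 FPKM at 24 h and could only be lower. With at least 1 FPKM in both values the median was again 0.51. Tex19.1, which restrains retrotransposons, rose from 34.5 to 105.0 FPKM, Mael, a piRNA factor, from 3.41 to 13.2 FPKM, and Taf7l from 0.573 to 3.03 FPKM. Dazl, an RNA-binding protein of germ cells, was at 39.2 and 47.3 FPKM, and Sycp3, part of the synaptonemal complex, fell from 11.05 to 3.15 FPKM. None of the 17 two-cell-like genes in the table reached 1 FPKM at either timepoint, the highest value being 0.673 FPKM.

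Lineage markers differed by list, and their counts are to be read beside the 8.64% of all genes that rose and the 14.3% that fell. Many are scarce, and calls are more frequent there. The shares were 19.5% and 29.4% of genes whose higher value lay between 1 and 2 FPKM. Between 2 and 5 FPKM they were 11.3% and 23.0%. Of the 22 genes of the primitive streak and mesendoderm list 17 stayed under 1 FPKM, and the 5 tested fell. Of these only Eomes was at 1 FPKM or more at 24 h, so the others entered through their 0 h value and had to be lower. Gsc, a homeobox gene of the organizer on chromosome 12 from 104471209 to 104473330, went from 8.97 to 0.0469 FPKM. Brachyury (T) was at 2.85 and 0.0814 FPKM and Eomes at 3.01 and 1.18 FPKM, and Cdx2 was at 1.01 and 0.0799 FPKM, close to the threshold. T and Cdx2 are also in the Wnt list. Of the 10 tested neurectoderm genes 3 rose and 1 fell, with a median log2 ratio of 0.53. Tubb3, a neuronal tubulin, rose from 14.7 to 34.4 FPKM and Pax6 from 0.263 to 2.08 FPKM, while Hesx1, a homeobox gene of the anterior epiblast and forebrain, fell from 7.22 to 0.666 FPKM. Sox1, the defining neural marker, was at 1.02 and 1.63 FPKM, and Nes at 4.76 and 3.83 FPKM. The median changes sign, to -0.30, if 5 FPKM is required in the higher value. Of 7 extraembryonic endoderm genes 3 fell, and the most abundant, the matrix gene Sparc, was at 430.8 and 228.3 FPKM. The part of the fibroblast genes described below in these values was not tested. Of 10 trophoblast genes 6 fell and 2 rose; the defining endoderm marker Gata6 (0.744 and 0.611 FPKM) and the trophoblast marker Elf5 (0 and 0.0319 FPKM) were not tested. Tfap2c, which also acts in naive cells, fell from 38.3 to 2.60 FPKM.

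**Figure D4:**
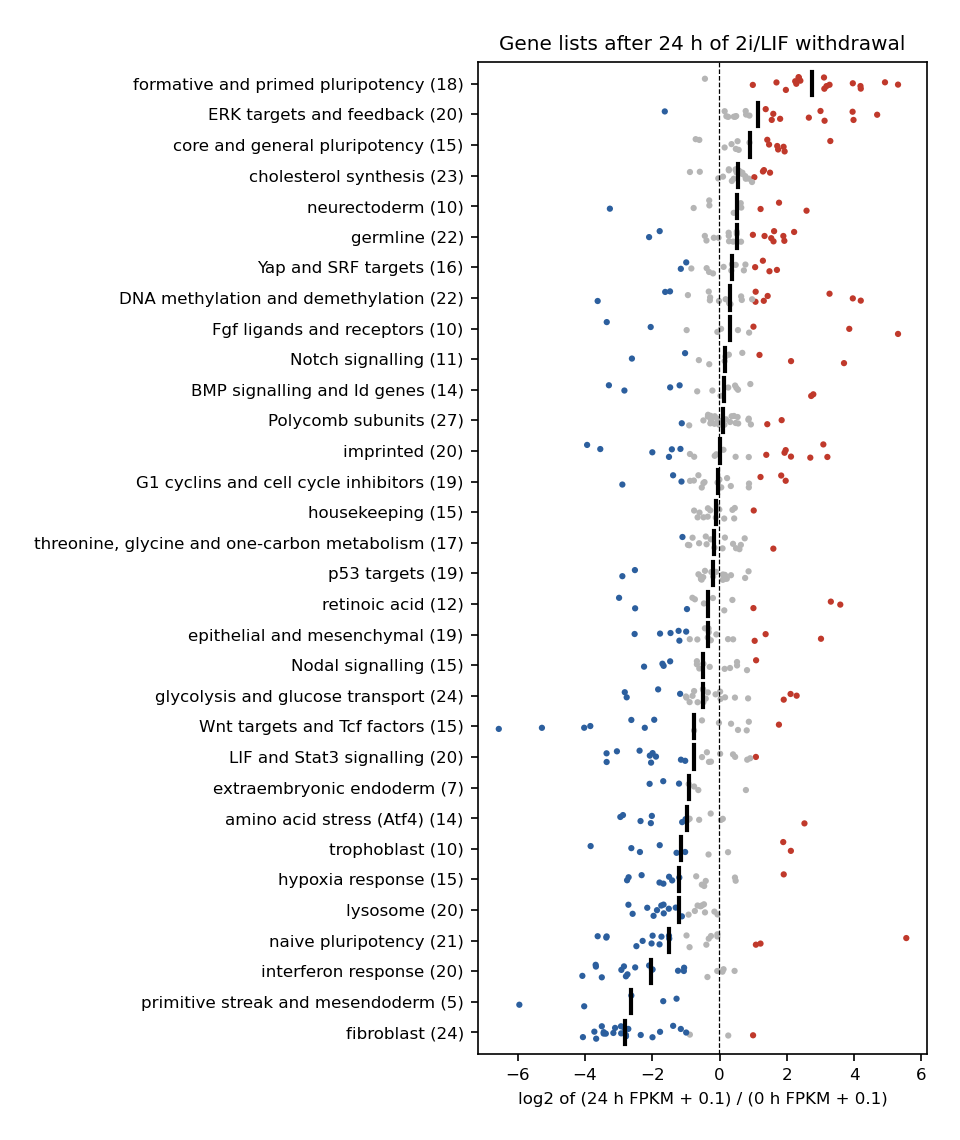
Log2 ratio of 24 h to 0 h, with 0.1 FPKM added to each value, for the tested genes of each list (number in brackets). Points are genes, red for those at least 2-fold higher at 24 h, blue for those at least 2-fold lower and grey for neither; the black bar is the list median and the dashed line the median of all 12884 genes (-0.01). The formative list lies highest, with a median of 2.75, and the fibroblast list lowest, with -2.80.

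Fibroblast genes were abundant at 0 h and much lower at 24 h. All 24 genes of the list were tested, 21 fell and 1 rose, the median log2 ratio was -2.80 and the summed value went from 1508 to 263.6 FPKM. Fn1, fibronectin, was the most abundant at both timepoints, at 294.0 and 86.3 FPKM, and is also expressed by pluripotent cells. Of the 10 defining fibroblast markers, none was at 0 at either timepoint and 9 fell. Col1a1, the chief chain of type I collagen, was at 228.7 and 21.0 FPKM. Col3a1, on chromosome 1 from 45311538 to 45349706, was at 200.8 and 12.0 FPKM, and the matrix gene Postn at 101.8 and 9.69 FPKM. The transcription factor gene Prrx1 was at 8.06 and 1.09 FPKM. These 4 falls were between 7.40-fold and 16.8-fold. Thy1, which is not particular to fibroblasts, rose from 4.01 to 8.10 FPKM. In bulk RNA, fewer cells of a type and less RNA per cell cannot be told apart. At 36 h Col1a1 and Col3a1 were lower again, at 5.11 and 3.40 FPKM. Cells taken at 0 h and kept for 48 h in serum/LIF after re-seeding, with no dox, had 1.45 and 0.116 FPKM of these genes. Among all 23 measured genes whose symbol begins with Col and a number, 16 fell and 1, Col2a1 (named after its value was seen), rose; the basement membrane gene Col4a1 was at 6.19 and 10.7 FPKM, and 1 symbol of the 23, Col4a3bp, is not a collagen. The part of the fibroblast markers in the results that follow was not tested.

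Interferon response and antigen presentation genes fell alongside. Of 20 tested, 15 fell and none rose by the 2-fold rule, with a median log2 ratio of -2.05. Of the 15, 8 were under 1 FPKM at 24 h, so they entered through their 0 h value and could only be lower. B2m, the light chain of MHC class I on chromosome 2 from 122147686 to 122153083, was at 449.1 and 34.9 FPKM. The class I heavy chain genes H2-D1 and H2-K1 were at 55.5 and 44.2 FPKM and then at 9.69 and 10.9 FPKM. Most other members were scarce, such as Isg15 at 9.44 and 1.16 FPKM and Irf7 at 3.15 and 0.354 FPKM, and among those at 10 FPKM or more the median was -1.06. Ifitm2 (586.5 and 622.9 FPKM) and Irf1 (15.9 and 17.3 FPKM) did neither. The summed fibroblast list went from 1508 to 263.6 FPKM over the same interval, and its part in the values of broadly expressed genes such as B2m was not tested.

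All 20 lysosomal genes had a lower value at 24 h and 11 of them fell, with a median log2 ratio of -1.21. Lamp2, a membrane protein of the lysosome, was at 81.2 and 13.5 FPKM, the hexosaminidase gene Hexa at 94.8 and 21.3 FPKM, and the protease gene Ctsl at 145.8 and 51.2 FPKM. Lamp1 was at 293.3 and 198.2 FPKM and Sqstm1, an autophagy receptor, at 140.8 and 104.4 FPKM. The regulator Tfe3, which activates lysosomal genes and was named after its value was seen, rose from 28.1 to 69.7 FPKM. Fibroblasts express these genes too, and the part of the fibroblast markers in this result was not tested.

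Metabolic and stress lists differed from one another. Their counts stand beside the 8.64% of all genes that rose and the 14.3% that fell. Amino acid stress genes downstream of Atf4 were lower, with 7 of 14 tested falling and 1 rising and a median log2 ratio of -0.97. Asns, asparagine synthetase, fell from 594.2 to 144.3 FPKM and Ddit3, which encodes Chop, from 58.8 to 7.54 FPKM, while the cationic amino acid transporter gene Slc7a3 rose from 29.4 to 169.8 FPKM. Of 15 hypoxia response genes 8 fell and 1 rose, the latter near the share of all genes, with a median of -1.19. Vegfa fell from 29.2 to 5.78 FPKM and P4ha1, a collagen prolyl hydroxylase subunit, from 26.3 to 3.96 FPKM. In glycolysis and glucose transport 4 of 24 fell and 3 rose, beside 8.60% and 5.89% of all genes that reached 10 FPKM, with a median log2 ratio of -0.48. The neuronal-type glucose transporter gene Slc2a3 fell from 338.0 to 47.9 FPKM and hexokinase 1 (Hk1) from 58.2 to 16.4 FPKM, whereas the lactate transporter gene Slc16a3 rose from 24.3 to 105.1 FPKM and Pdk1, which restrains pyruvate oxidation, from 15.6 to 59.0 FPKM. Cholesterol synthesis was shifted the other way, with 20 of 23 genes higher at 24 h, 4 rises and no falls by the 2-fold rule and a median log2 ratio of 0.56. Among them Idi1, an isomerase of the early steps, rose from 27.4 to 67.2 FPKM. In threonine, glycine and one-carbon metabolism, Tdh, threonine dehydrogenase, fell from 301.4 to 140.4 FPKM, Mat2a, which makes S-adenosylmethionine, rose from 65.2 to 197.7 FPKM, and the other 15 genes did neither.

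Signalling lists outside 2i/LIF held both rises and falls, beside 8.64% and 14.3% of all genes. Among Fgf genes, the ligands Fgf5 and Fgf15 (0.218 and 4.50 FPKM) and the receptor gene Fgfr2 (2.38 and 4.88 FPKM) rose, Fgf10 (4.44 and 0.345 FPKM) and Fgf3 (3.02 and 0.655 FPKM) fell, and the receptor gene Fgfr1 was at 21.5 and 22.2 FPKM. In the Nodal list 4 of 15 fell and 1 rose, the latter near the share of all genes. The inhibitor gene Lefty2 fell from 57.0 to 12.0 FPKM, the feedback gene Smad7 from 17.4 to 6.23 FPKM, and Nodal itself was at 30.5 and 19.08 FPKM. Among BMP and Id genes, Id3 rose from 4.18 to 29.5 FPKM and the ligand gene Bmp4 from 0.840 to 6.11 FPKM, while Bmp7 fell from 6.51 to 0.577 FPKM and Id4 from 7.95 to 1.03 FPKM. In the Notch list, the ligand genes Dll1 (0.527 and 8.04 FPKM) and Dll3 (2.89 and 12.95 FPKM) rose with the nuclear effector Rbpj, whereas the target gene Hes1 fell from 83.7 to 13.7 FPKM. In the retinoic acid list, the receptor gene Rarg rose from 7.57 to 75.8 FPKM and the binding protein gene Crabp2 from 3.51 to 43.3 FPKM, and the synthetic enzyme gene Aldh1a2 fell from 4.87 to 0.774 FPKM.

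The lists of this paragraph are to be read beside the 8.64% of all genes that rose and the 14.3% that fell, and several counts are near these shares. Among G1 regulators 3 of 19 rose and 3 fell. Ccne1, cyclin E1, rose from 38.2 to 136.4 FPKM, and Cdkn1a, the inhibitor p21, fell from 185.0 to 24.9 FPKM. Of 19 p53 targets, the only ones that fell were Cdkn1a and Fas (2.45 and 0.346 FPKM), and none rose. Of 27 Polycomb subunits 24 did neither; Phc1 rose from 79.9 to 213.9 FPKM, Phf19 rose from 0.778 to 3.06 FPKM, and 1 subunit fell. The epithelial and mesenchymal list had 3 rises and 6 falls among 19 genes. Esrp1, an epithelial splicing regulator, rose from 2.45 to 20.5 FPKM, and the cell adhesion gene Epcam from 40.5 to 83.7 FPKM. The claudin genes, also epithelial, went both ways. Cldn6 rose from 11.8 to 30.7 FPKM, and Cldn3 (15.95 and 2.69 FPKM), Cldn4 (64.8 and 27.8 FPKM) and Cldn7 (18.5 and 6.69 FPKM) fell. The other falls were those of Fn1, Twist1 and Zeb2, and Cdh1, E-cadherin, was at 113.8 and 95.1 FPKM. Of 16 Yap and SRF targets 4 rose, among them Acta2 from 8.65 to 24.4 FPKM, and 2 fell. Imprinted genes moved in both directions, with 7 rises and 6 falls among 20. Mest rose from 6.60 to 61.6 FPKM, Peg10 from 9.42 to 61.7 FPKM and Snrpn from 58.1 to 253.2 FPKM, while Igf2 fell from 43.5 to 2.75 FPKM, Plagl1 from 52.8 to 4.44 FPKM and H19 from 82.4 to 20.6 FPKM. Of 15 housekeeping genes only Actb rose, from 1041 to 2105 FPKM, and none fell by the 2-fold rule; their median log2 ratio was -0.11 and became 0.01 when both timepoints were scaled to the same sum.

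The 15 largest rises by ratio among genes that reached 10 FPKM and were above 0 at both timepoints included Fgf5, Eras, Pou3f1, Spry4, Pim2, Dnmt3a, Egr1 and Myc of the lists. Enox1, a cell surface oxidase gene, led them from 0.576 to 39.3 FPKM, a 68.2-fold rise. By 48 h it was back at 7.91 FPKM, and at 0.607 FPKM by 96 h. Myrf, a membrane-bound transcription factor known from myelinating cells, was at 0.536 and 32.5 FPKM. Enpp2, which encodes autotaxin, was at 0.652 and 24.6 FPKM, and Crmp1, a regulator of the neuronal cytoskeleton, at 0.419 and 15.2 FPKM. The rest were Foxi3, Prss50 and Spink3, with values at 24 h between 10.4 and 19.4 FPKM. The kinase gene Pim2, at 4.43 and 82.5 FPKM, continued to 286.4 FPKM at 48 h. Genes of the formative and ERK lists thus stood beside genes known from other tissues. At 5 FPKM or more at 24 h, 9430069I07Rik with 5.76 FPKM and Gm525 with 6.81 FPKM were listed at 0 at 0 h, and no gene was at that level at 0 h and at 0 at 24 h.

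Of the 15 largest falls under the same rule, Sp5 and Col3a1 belong to the lists. The largest was that of the uncharacterised gene 5930412G12Rik, from 11.8 to 0.0784 FPKM. Trpm1, a cation channel gene, was at 64.4 and 1.36 FPKM, Aqp3, a water and glycerol channel gene, at 54.9 and 1.76 FPKM, and AA467197 at 127.9 and 5.27 FPKM. Nnmt, nicotinamide N-methyltransferase, was at 11.1 and 0.396 FPKM. Tnni1, a troponin of slow muscle, was at 19.4 and 0.171 FPKM, Calb2, calretinin, at 20.8 and 0.757 FPKM, and Ap3b2, an adaptor subunit known from neurons, at 25.4 and 0.431 FPKM. Slc16a9, Lhfpl2, Gstm3, Lgals3bp and C130074G19Rik completed the set, from values at 0 h between 12.3 and 31.3 FPKM. Trpm1, Aqp3 and Slc16a9 encode membrane transport proteins.

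In absolute terms the largest gains were those of genes already abundant. Gm26917, annotated as a lincRNA, was at 1169 and 2806 FPKM, Actb gained next, and Ptma, Trim28, Ppia, Npm1, Dynll1, Pfn1 and Hspa8 gained without passing 2-fold. Utf1 was the only gene among these 10 with less than 500 FPKM at 0 h. Of the 10 largest losses, 7 were cytosolic ribosomal protein genes, led by Rps28 at 9279 and 5220 FPKM, and of these only Rps2 fell by the 2-fold rule, from 3851 to 1598 FPKM. Dppa5a, an RNA-binding protein of pluripotent cells, fell from 4620 to 1780 FPKM, and the metallothionein gene Mt2 and the ribosome-associated Gnb2l1 completed the 10. The ribosomal protein genes as a group were shifted slightly, with a median log2 ratio of -0.32 for 55 genes of the Rpl series and -0.31 for 47 of the Rps series, pseudogenes included, and -0.19 for both under scaling to the same sum. Their transcripts are short and multiply copied, and at 10 FPKM or more the 65 genes whose longest transcript is at most 500 bases had a median of -0.22, against 0.09 for the 2367 genes between 3000 and 5000 bases. The part of transcript length in the ribosomal shift was not tested.

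Families were formed from the shared first letters of symbols, and those given here were picked after their medians were seen. RNA polymerase subunit genes (Polr, 28 genes) had a median log2 ratio of 0.53, nucleoporins (Nup, 20 genes) 0.41, DEAD-box helicases (Ddx, 37 genes) 0.40 and mitochondrial ribosomal proteins of the large subunit (Mrpl, 48 genes) 0.27. Between 1 and 3 members of each rose by the 2-fold rule. Histone genes (Hist, 55 genes) were at -0.50, with 11 falls and no rises; most histone mRNA lacks a poly(A) tail and is poorly captured by oligo dT selection. Of 305 zinc finger genes of the Zfp series, 19 rose (6.23%) and 11 fell (3.61%), with a median of 0.10. Over all genes 8.64% rose and 14.3% fell. Scaling to the same median ratio shifts log2 ratios by about -0.01 and scaling to the same sum by about 0.12. These shifts were too small to change the sign of any of these medians.

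Shares of calls on the X chromosome and among noncoding genes are given beside those of the other genes, with no test of the difference. Of 435 X-linked genes tested, 63 rose (14.5%) and 46 fell (10.6%), against 8.32% and 14.6% of 11844 autosomal genes. At 10 FPKM or more the shares were 8.64% and 7.27% on the X chromosome, against 5.72% and 8.76%. Besides Eras and Pim2, the X-linked genes that rose at this level included Slc7a3, Nr0b1, Stag2 of the cohesin complex (18.7 and 51.4 FPKM), Acsl4 (6.48 and 26.8 FPKM) and Tmsb4x (334.5 and 680.2 FPKM), of which the last 3 were named after their values were seen. Xist, the RNA that coats an inactive X chromosome and was likewise named afterwards, was at 0.470 and 1.30 FPKM. Of 205 lincRNA genes 27.8% rose and 16.6% fell, and of 306 antisense genes 20.6% rose and 25.2% fell, against 7.73% and 14.1% of 11563 protein-coding genes. Calls of both kinds were frequent among genes of low expression, and the part of expression level in these shares was not tested. The sources used here do not say whether reads were counted by strand, so an antisense gene and its partner may not be told apart.

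Over the time course, the first 24 h held more changes than any other interval between neighbouring timepoints, although intervals differ in length. From 24 to 36 h, 5.44% of 12454 genes rose and 6.28% fell. From 36 to 48 h the shares were 2.78% and 2.01%, from 48 to 60 h 4.97% and 4.27%, and from 60 to 72 h 2.97% and 2.27%. The last interval, 72 to 96 h, is also 24 h long, and in it 5.1% of 12788 genes rose and 5.01% fell. The 1113 genes that rose in the first interval had medians of 1.60 and 5.79 FPKM at 0 and 24 h, and at 36, 48, 60, 72 and 96 h the medians were 5.87, 5.61, 4.68, 4.15 and 3.39 FPKM. For the 1848 that fell they were 5.08 and 1.47 FPKM at 0 and 24 h, and then 1.44, 1.63, 2.09, 2.51 and 2.88 FPKM. Both medians thus stayed near their 24 h level until 48 h and then moved part of the way back. These genes were chosen by their 0 h and 24 h values, and nothing about their later course was tested.

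**Figure D5:**
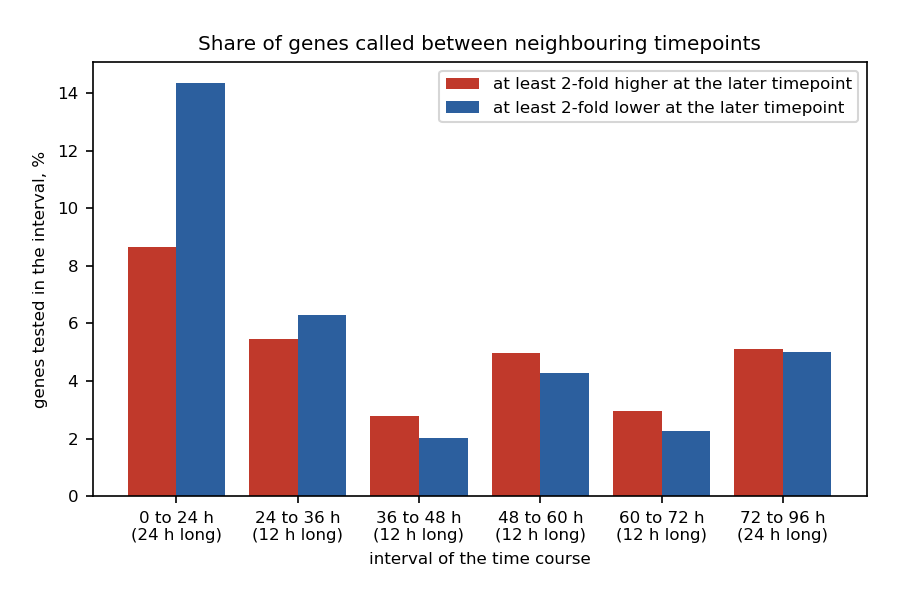
Share of tested genes at least 2-fold higher (red) or lower (blue) at the later timepoint of each interval, in percent, with the length of the interval under each pair of bars. The interval from 0 to 24 h has 8.64% and 14.3%, and the other interval of 24 h, from 72 to 96 h, has 5.1% and 5.01%.

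Values in cells that spent 48 h in serum/LIF after re-seeding, with no dox, stand beside these for orientation. Their medium and time in culture were not those of the time course. In the colony assay such cells were placed on CF1 MEFs. The summed fibroblast list was at 231.1 FPKM in cells re-seeded from 0 h, against 1508 FPKM at 0 h itself. Fn1 made up 188.3 FPKM of the former sum. In cells re-seeded from 0 h, which had not been withdrawn before re-seeding, the genes that rose had a median of 3.89 FPKM and those that fell 3.11 FPKM. In cells re-seeded after 24 h of withdrawal the medians were 4.51 and 2.40 FPKM. Spry4 was at 41.5 FPKM and Sp5 at 0.0892 FPKM in cells re-seeded from 0 h, while Fgf5 was at 0.287 FPKM and Nanog at 120.3 FPKM. Formative genes differed there, with Dnmt3l at 420.6 FPKM, Otx2 at 55.2 FPKM and Pou3f1 at 3.64 FPKM.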

How the data were processed

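Polyadenylated RNA from the secondary iPSCs was sequenced on the HiSeq 2000. According to the methods and the submitters' processing notes, reads were mapped to mm10 with TopHat 2.0.14, transcripts of Gencode M4 of at least 200 bp were quantified with Cufflinks 2.2.1, and the authors deposited FPKM values in which Cuffdiff had merged the 2 replicates of a condition. Columns of the authors' own response calls and clusters were not used.

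Ratios of 24 h to 0 h were computed with Python 3.11.15, numpy 2.4.6 and pandas 2.3.3 for genes that reached 1 FPKM at either timepoint, and called at 2-fold or more. Figures were made in matplotlib 3.10.9. List medians used log2 ratios with 0.1 FPKM added. The code was tested on simulated data. Without replicate values no test was possible.

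Depth is known only roughly. Values of 1380 genes with a single transcript of at least 2.5 kb, multiplied by length, start at a common lowest value. A 2 kb gene at 1 FPKM is at 31.6 times that value at 0 h and 32.9 times at 24 h. These are not counts, because replicates were combined.

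The genes named are those of 34 lists of textbook genes, the 15 largest rises and falls by ratio with at least 10 FPKM, the 10 largest in FPKM, and genes at 0 in one condition and at least 5 FPKM in the other. The comparison and the lists were chosen with earlier results of these data known. Gene positions are from Gencode M21 (mm10), in which 94.7% of symbols were found. Another 27 rows carry symbols turned into dates and were counted but not named. Alternatives were tried for the minimum expression, fold, pseudocount and scaling. Some genes are not reported here by name.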

Additional observations from a re-analysis of the deposited data

How the results depend on the processing

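With 1 combined value per condition, no replicate could be left out. No paired analysis was possible because the table holds no replicate values. In place of 1113 genes that rose and 1848 that fell, a minimum of 5 FPKM gave 592 and 937, a minimum of 10 FPKM gave 429 and 626, at least 1 FPKM in both values gave 653 and 1076, and no minimum gave 3211 and 3963. A 1.5-fold threshold gave 2299 and 3028, a 3-fold threshold 566 and 1005, and adding 1 FPKM before the ratio 713 and 1197. More genes fell than rose under each of these. Scaling to the same median ratio gave 1094 and 1876, and scaling to the same sum of FPKM gave 1402 and 1596. Alternatives added after seeing the data, a minimum of 2 FPKM and leaving out the fibroblast list and collagen genes, gave 832 and 1424 and 1111 and 1819. The median-ratio scaling shifts log2 ratios by only about -0.01, so it could hardly change the sign of a list median. None of the 33 list medians changed sign under it. Under the same sum 3 did, those of the G1 regulators, the housekeeping genes and the 4 OSKM genes. With 1 FPKM in both values, the medians of the Wnt, retinoic acid and imprinted lists changed sign, to 0.16, 0.26 and -0.10. That filter removes genes with a low value at either timepoint. With 5 FPKM in the higher value those of the neurectoderm, Fgf and retinoic acid lists did, to -0.30, -0.01 and 0.38, and with 10 FPKM, an alternative added after seeing the data, those of the Wnt list, the retinoic acid list and the G1 regulators, to 0.34, 0.69 and 0.02. No list median changed sign with 1 FPKM added. The interferon median was -1.25 with 1 FPKM added and -1.06 with 1 FPKM in both values, and the mesendoderm median -0.89 and -1.28. Calls were most frequent between 1 and 2 FPKM, where 19.5% of genes rose and 29.4% fell, and the part of depth in this was not tested.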
